A study of Vitis vinifera and Vitis quinquangularis with 24 samples.

Results

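The step at which the berry skin of Cabernet Sauvignon begins to colour was described with 6 of the 24 libraries of a grape skin RNA sequencing series: the 3 libraries of stage E-L 34 and the 3 of stage E-L 35. The stages are those of the Eichhorn-Lorenz scale, on which berries begin to soften at E-L 34 and begin to colour at E-L 35. Cabernet Sauvignon is a cultivar of Vitis vinifera, the wine grape, and the libraries were made from total RNA of grape skin with no treatment named in the labels. The series also holds E-L 33 and E-L 38 skins of Cabernet Sauvignon and the same 4 stages of Danfeng-2, an accession of the wild Asian grape Vitis quinquangularis, with 3 libraries each. Apart from the common fit of all 24 libraries, the other groups are used here only where a comparison needs them. The labels do not say if replicates are separate vines or berry pools. A p-value here sets the difference between groups against the spread among libraries of a group, which may be technical alone. That spread was estimated over all 24 libraries, so it can also reflect groups outside the comparison.

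The onset of ripening, called veraison, is the time at which grape berries soften, take up sugar and, in red cultivars, begin to make anthocyanins in the skin. Anthocyanins and the stilbenes, to which resveratrol belongs, both branch from the phenylpropanoid pathway, in which enzymes turn phenylalanine into precursors of pigments, tannins, lignin and stilbenes. Abscisic acid and sugar are known signals of this transition, and the photosynthesis programme of the green berry is known to recede. In grape the stilbene synthase genes lie mostly in tandem arrays, the larger of them on chromosome 16. The deposited tables name gene models only by identifier, and the reference table of gene names held none of them (0 of 27711). Models are therefore given by identifier and by the chromosome positions the tables list, for a genome build that those tables do not state. No role is given to any model, and the skin label was not checked against marker genes.

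Total counts were 23095568, 21670621 and 21490363 in the E-L 34 libraries and 15615399, 16449389 and 18804492 in the E-L 35 libraries. Replicate 3 of E-L 34 stood apart from its group. Across the tested models, which are not independent replicates, the log2 levels of replicates 1 and 2 of E-L 34 correlated with r = 0.997, whereas replicate 3 correlated with them at 0.972 and 0.971. The 3 pairs of E-L 35 libraries had r between 0.995 and 0.996. Replicate 3 differed from replicates 1 and 2 by more than 2-fold in 1557 and 1576 models, against 65 models between replicates 1 and 2 and 94 to 126 models between E-L 35 libraries. Of the 1245 models more than 2-fold from both partners, 1110 were higher and 135 were lower in replicate 3. In the 6360 models called without it, replicate 3 lay a median of 18.6% of the way from its partners to E-L 35, with an interquartile range of -0.80% to 41.3%, and 73.1% of these models lay on the E-L 35 side of its partners. These models were chosen for a difference between its partners and E-L 35, which by itself favours a place toward E-L 35. The shares are therefore descriptions and no test. Over all tested models replicate 3 correlated with the E-L 35 libraries at r = 0.867 to 0.868, against 0.847 to 0.849 for its partners, and with the E-L 33 libraries at 0.938, against 0.922 to 0.924, so by this measure it lay nearer to both neighbouring stages. What set this library apart was not tested. Results are given with it, and without it where the call ends or the value moves by more than 1.5-fold.

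Of 18375 gene models tested, 2670 rose (14.5%) and 3106 fell (16.9%) between the stages, at a change of at least 2-fold and a Benjamini-Hochberg adjusted p below 0.05 by edgeR's quasi-likelihood test. Without E-L 34 replicate 3, 3067 of 18656 tested models rose (16.4%) and 3370 fell (18.1%). Changes were often large. By the fitted log2 fold change, 1310 models rose at least 4-fold, 751 at least 8-fold and 277 at least 32-fold, and 1490, 796 and 270 fell by as much. Those counts include models with few counts in the lower group, for which the fitted fold depends on the prior count. Among models of at least 20 CPM (counts scaled to the size of the library) in the higher group, 117 rose and 88 fell at least 32-fold. Leaving out E-L 34 replicate 3 raised the number of models that rose at least 32-fold from 277 to 444 and of those that fell as much from 270 to 294.

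**Figure D1:**
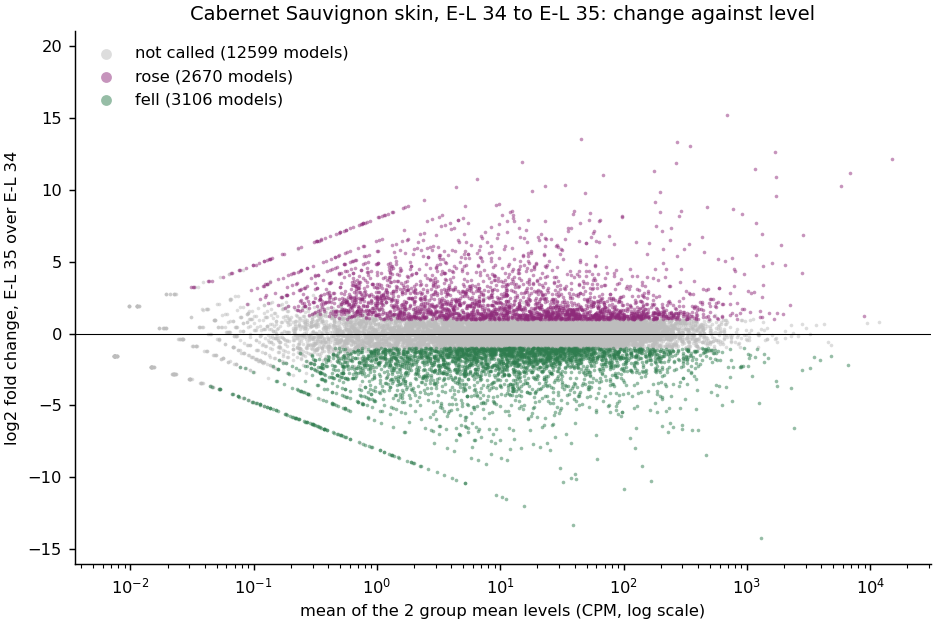
Log2 fold change from E-L 34 to E-L 35 (vertical axis) against the mean level in CPM (horizontal log axis) for the 18375 tested models, 1 point each. The 2670 models that rose and the 3106 that fell are spread over low and high levels, and the diagonal bands at low level are models with 0 counts, or few, in one group.

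The change took in a large part of the messenger RNA. Models that rose held 6.87%, 6.85% and 7.73% of the counts of the E-L 34 libraries and 31.8%, 31.8% and 31.7% of those of the E-L 35 libraries. Models that fell held 29.3%, 29.4% and 26.4% at E-L 34 and 6.34%, 6.41% and 6.31% at E-L 35. The groups did not overlap in either share, but the models were chosen on the same libraries, so these shares describe the size of the change and are no further test. The shares of replicate 3 of E-L 34 were the nearest to those of E-L 35. Counts were also held by fewer models after the step: the 10 models with most counts held 6.85 ± 0.25% (SD, n = 3) at E-L 34 and 10.4 ± 0.12% (SD, n = 3) at E-L 35. The number of most abundant models that together held 50% of the counts was 923 ± 71.7 (SD, n = 3) at E-L 34 and 768 ± 12.3 (SD, n = 3) at E-L 35.

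**Figure D2:**
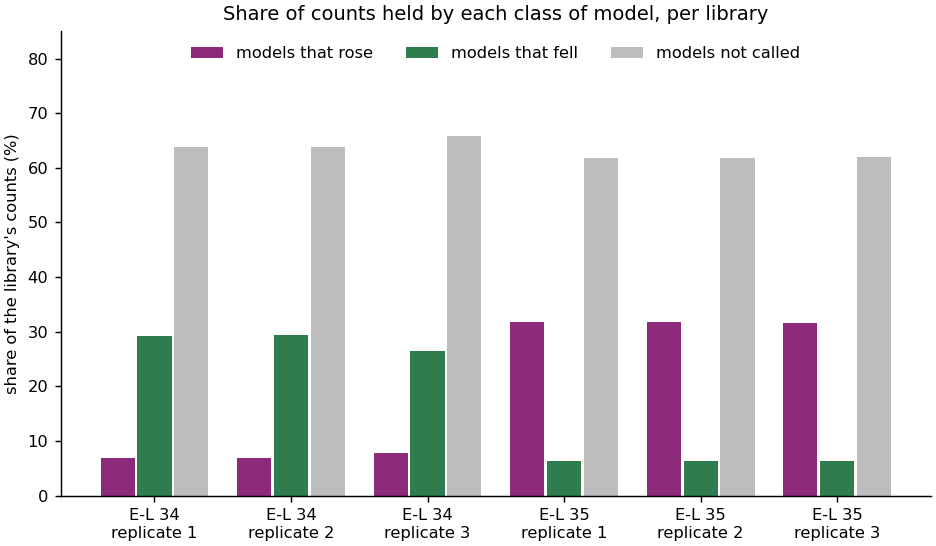
Share of each library's counts, in percent, held by models that rose, that fell and that were not called, for the 3 E-L 34 and the 3 E-L 35 libraries. The share of models that rose is 6.85% to 7.73% at E-L 34 and 31.7% to 31.8% at E-L 35, and that of models that fell is 26.4% to 29.4% and 6.31% to 6.41%.

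Of the 8 models with the largest gain in CPM, 3 had means under 10 CPM at E-L 34. In skin RNA as a whole, more RNA per cell and more cells of a type cannot be told apart, here and in all results below. VIT_05s0049g00520 (chromosome 5, 7580634 to 7788928, minus strand) had 4.99, 5.58 and 9.18 CPM in E-L 34 replicates 1 to 3 and 29843, 31302 and 28434 CPM in the E-L 35 libraries. Its mean rose from 6.59 ± 2.27 to 29859.9 ± 1434 CPM (SD, n = 3), a log2 fold change of 12.14 ± 0.85 (SE) with an edgeR adjusted p of 4.1e-10. No library of E-L 34 came near any library of E-L 35. Per length it was the most abundant model at E-L 35, at 49600.1 ± 2567 FPKM (SD, n = 3) against a mean of 10.1 FPKM at E-L 34. It spans 208295 bases and overlaps 18 other models, so the assignment of its reads among them is uncertain. One of these, VIT_05s0049g00510 (chromosome 5, 7567335 to 7581357, plus strand), rose from 1.85 ± 0.848 to 3471 ± 62.8 CPM (SD, n = 3).

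VIT_05s0094g00330 (chromosome 5, 23649929 to 23675612, minus strand) had 5.29, 4.22 and 8.78 CPM before the step and 14033, 13438 and 13796 CPM after it, a log2 fold change of 11.14 ± 1.5 (SE; edgeR adjusted p = 3.0e-06). VIT_06s0004g02560 (chromosome 6, 3075721 to 3076606, plus strand) had 1.14, 0.892 and 26.7 CPM in the E-L 34 libraries and 11695, 11623 and 11500.1 CPM in the E-L 35 libraries. Replicate 3 of E-L 34 was the high one of its group for this model, and the log2 fold change was 10.24 ± 1.06 (SE; edgeR adjusted p = 1.0e-07) with it and 13.39 without it. At ripeness VIT_06s0004g02560 was at 797 ± 145 CPM in the E-L 38 libraries (SD, n = 3), while VIT_05s0094g00330 was at 18585 ± 2251 CPM and VIT_05s0049g00520 at 21513 ± 612 CPM. No test of E-L 35 against E-L 38 is given for these.

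A different kind of gain came from a model that was already abundant. Grape_newGene_2050, a newly predicted model on no assigned chromosome, 22776812 to 22780375 in the files, plus strand, had 4999, 5296 and 5853 CPM before the step and 12485, 11772 and 12645 CPM after it. It gained CPM at a log2 fold change of 1.19 ± 0.14 (SE; edgeR adjusted p = 4.3e-07), with no overlap between the groups. At E-L 33 it had stood at 10282 ± 16.9 CPM (SD, n = 3), so part of this gain followed a lower level at E-L 34. Its change from E-L 33 to E-L 38 was below 2-fold, at a log2 fold change of 0.49. The other 4 of the 8 models started lower. VIT_02s0025g04280 (chromosome 2, 3799827 to 3812825, plus strand) rose from 48.6 ± 9.56 to 5609.6 ± 199 CPM (SD, n = 3). VIT_12s0059g00590 (chromosome 12, 5441250 to 5464118, plus strand) rose from 284 ± 42.9 to 5262 ± 205 CPM, VIT_16s0022g00960 (chromosome 16, 12517766 to 12518431, minus strand) from 145 ± 28.1 to 3916 ± 119 CPM, and VIT_17s0000g05110 (chromosome 17, 5600225 to 5602640, minus strand) from 52.2 ± 7.83 to 3716 ± 54.1 CPM. Their log2 fold changes ran from 4.21 to 6.85, and the edgeR adjusted p was at most 7.9e-07. Together the 8 models held 0.597 ± 0.055% (SD, n = 3) of the counts at E-L 34 and 7.80 ± 0.089% at E-L 35.

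Among models with at least 10 counts summed over E-L 34, the highest fold change with all libraries was that of VIT_06s0061g00550 (chromosome 6, 18028157 to 18029872, plus strand); without replicate 3 that of VIT_06s0004g02560 was higher, at 13.39 against 12.50. VIT_06s0061g00550 had 0.569, 0.516 and 0.493 CPM in the E-L 34 libraries and 3322, 3418 and 3392 CPM in the E-L 35 libraries, a log2 fold change of 12.63 ± 1.03 (SE; edgeR adjusted p = 3.7e-09). All 3 E-L 34 libraries were alike here, replicate 3 included. VIT_01s0011g05110 (chromosome 1, 4747570 to 4775700, plus strand) rose from 0.843 ± 0.330 to 2331 ± 111 CPM (SD, n = 3), VIT_19s0090g01360 (chromosome 19, 7441173 to 7444471, plus strand) from 4.53 ± 2.02 to 3459.6 ± 128 CPM, and VIT_03s0038g03130 (chromosome 3, 2246272 to 2248895, plus strand) from 0.436 ± 0.0509 to 397 ± 10.3 CPM. VIT_03s0038g03130 had 0.394, 0.422 and 0.493 CPM before the step and 394, 408 and 388 CPM after it (log2 fold change 9.80 ± 0.25, SE; edgeR adjusted p = 4.9e-16).

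Some models were all but silent at E-L 34. In 18 of the models that rose, 1 to 9 counts were found over the 3 E-L 34 libraries with at least 20 CPM after the step; the examples that follow were chosen after their values were seen, as the rule for named models left them out. VIT_04s0079g00690 (chromosome 4, 11505001 to 11507285, minus strand) had 1, 1 and 0 counts at E-L 34 and 18803, 21369 and 23416 counts at E-L 35. Scaled to library size this was a ratio of 45804-fold with a 95% exact counting interval of 12679 to 378225, and of 30425-fold (8422 to 251236) without replicate 3. VIT_11s0016g04920 (chromosome 11, 4233708 to 4234671, plus strand) went from 5 counts over E-L 34 to 31552 over E-L 35, and VIT_15s0021g02700 (chromosome 15, 13674331 to 13737731, plus strand) from 3 counts, all in replicate 1, to 24969. The intervals cover counting error only.

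A further 69 of the models that rose had 0 counts in all 3 E-L 34 libraries, and 4 of them reached at least 5 CPM. Without replicate 3 the number at 0 was 219, a set that includes models called only in that fit. VIT_00s0225g00230 (on no assigned chromosome, 14754484 to 14758787 in the files, minus strand) reached 90.0, 91.1 and 88.1 CPM in the E-L 35 libraries, at least 1989-fold above a floor of 3 counts for the whole E-L 34 group (at least 1321-fold without replicate 3). VIT_02s0033g00410 (chromosome 2, 14239792 to 14240808, minus strand), which overlaps another model, reached 24.5, 34.4 and 31.6 CPM, at least 669-fold higher (at least 444-fold without replicate 3). VIT_14s0066g02590 (chromosome 14, 28766577 to 28769714, minus strand) and VIT_19s0090g01380 (chromosome 19, 7449834 to 7450950, plus strand) reached means of 12.9 ± 0.493 and 8.76 ± 1.09 CPM (SD, n = 3). The edgeR adjusted p of the 4 models was at most 3.6e-07.

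**Figure D3:**
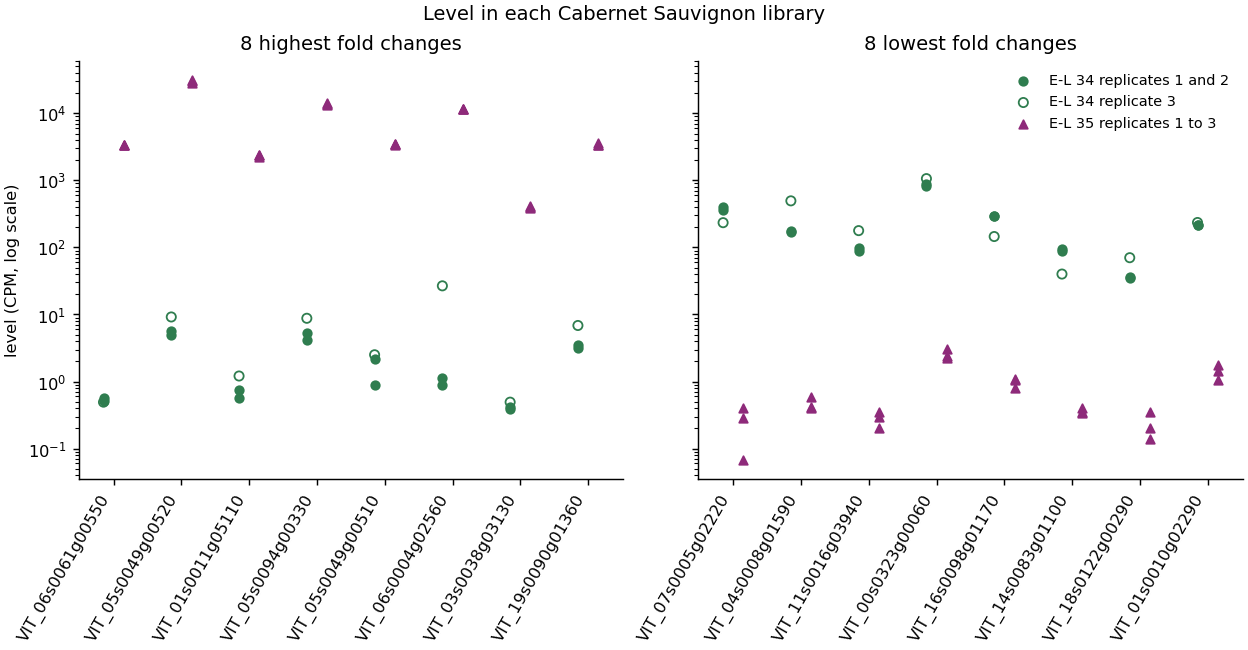
Level in CPM (vertical log axis) in each library of the 8 models with the highest and the 8 with the lowest log2 fold change among called models with at least 20 CPM in the higher group, no overlap between groups and at least 10 counts over the lower group. Filled circles are E-L 34 replicates 1 and 2, open circles E-L 34 replicate 3 and triangles E-L 35; replicate 3 of VIT_06s0004g02560 lies at 26.7 CPM against 1.14 and 0.892 CPM in its partners.

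The models with the largest losses in counts were abundant at E-L 34. VIT_06s0004g03240 (chromosome 6, 3985494 to 4014828, plus strand) had 11439.5, 11418 and 9812 CPM in the E-L 34 libraries and 2398, 2484 and 2347 CPM in the E-L 35 libraries. It fell by 2.18 ± 0.18 (SE) on the log2 scale (edgeR adjusted p = 4.6e-09), with every E-L 34 library above every E-L 35 library. VIT_18s0001g14260 (chromosome 18, 12273788 to 12276775, minus strand) fell further, from 5255, 5507 and 3665 CPM to 49.3, 53.6 and 50 CPM, a log2 fold change of -6.56 ± 0.63 (SE; edgeR adjusted p = 3.9e-08). Per length VIT_18s0001g14260 was the most abundant model at E-L 34, at 22791 ± 5084 FPKM (SD, n = 3), and it stood at 234 FPKM at E-L 35. Replicate 3 was the low library of E-L 34 for both models. The other 6 of the 8 largest losses in CPM had E-L 34 means of 4209 to 7183 CPM and E-L 35 means of 308 to 2482 CPM, with log2 fold changes from -3.77 to -1.53. They were VIT_13s0073g00560 (chromosome 13, 14441220 to 14444078, plus strand), VIT_19s0090g01000 (chromosome 19, 7105576 to 7108433, plus strand), VIT_04s0008g03930 (chromosome 4, 3274443 to 3276127, plus strand), VIT_14s0060g00690 (chromosome 14, 593133 to 600665, plus strand), VIT_10s0116g01780 (chromosome 10, 1056785 to 1058642, plus strand) and VIT_06s0004g04510 (chromosome 6, 5469913 to 5473690, minus strand). Together the 8 models held 4.89 ± 0.47% (SD, n = 3) of the counts at E-L 34 and 0.954 ± 0.017% at E-L 35.

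Other models fell nearly out of detection. VIT_07s0005g02220 (chromosome 7, 4605071 to 4605897, minus strand) had 363, 395 and 234 CPM before the step and 0.283, 0.0674 and 0.408 CPM after it, a log2 fold change of -10.27 ± 0.56 (SE; edgeR adjusted p = 1.3e-11). VIT_00s0323g00060 (on no assigned chromosome, 23323724 to 23324614 in the files, plus strand) had 893, 810.4 and 1063 CPM in the E-L 34 libraries and 2.404, 3.10 and 2.27 CPM in the E-L 35 libraries (log2 fold change -8.47 ± 0.76, SE; edgeR adjusted p = 1.5e-08). Replicate 3 was the low library of E-L 34 in the former and the high one in the latter. VIT_04s0008g01590 (chromosome 4, 1251984 to 1252699, minus strand) had 169.7, 178 and 495 CPM at E-L 34, so that replicate 3 was well above its partners, and 0.424, 0.404 and 0.583 CPM at E-L 35. Its log2 fold change was -9.18 ± 0.86 (SE; edgeR adjusted p = 2.5e-08) with replicate 3 and -8.57 without it. VIT_01s0010g02290 (chromosome 1, 19257410 to 19258339, plus strand) was steadier, with 219, 212 and 235 CPM before the step and 1.06, 1.41 and 1.75 CPM after it.

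The remaining 4 of the 8 lowest fold changes were VIT_11s0016g03940 (chromosome 11, 3224068 to 3225265, minus strand), VIT_16s0098g01170 (chromosome 16, 21439626 to 21440985, plus strand), VIT_14s0083g01100 (chromosome 14, 23425741 to 23428785, minus strand) and VIT_18s0122g00290 (chromosome 18, 307587 to 308531, minus strand). They had E-L 34 means of 122 ± 49.0, 245 ± 86.4, 74.4 ± 29.8 and 47.3 ± 19.9 CPM (SD, n = 3) and E-L 35 means of 0.282, 0.992, 0.366 and 0.231 CPM. Replicate 3 was the high library of E-L 34 in VIT_11s0016g03940 and VIT_18s0122g00290 and the low one in the other pair.

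A very steep loss was that of VIT_02s0154g00320 (chromosome 2, 5141572 to 5142327, minus strand), again outside the rule for named models and chosen after its values were seen. It had 72319, 68652 and 32743 counts at E-L 34 and 1, 3 and 2 counts at E-L 35, a ratio of 20097-fold with a 95% exact counting interval of 9233 to 54763. It is 1 of 15 models that fell with 1 to 9 counts over E-L 35 and at least 20 CPM at E-L 34. VIT_02s0025g01090 (chromosome 2, 1058843 to 1059401, minus strand) went from 13458 to 5 counts. In 114 of the models that fell, all 3 E-L 35 libraries had 0 counts (117 without E-L 34 replicate 3), and 12 of these had at least 5 CPM at E-L 34. VIT_05s0062g01160 (chromosome 5, 19871682 to 19874977, minus strand) had 95.5, 91.3 and 47.3 CPM at E-L 34 and was at least 1201-fold lower after the step, with the E-L 35 group set to a floor of 3 counts. VIT_02s0087g00470 (chromosome 2, 17858771 to 17865514, plus strand), VIT_15s0046g00310 (chromosome 15, 17321737 to 17322484, minus strand) and VIT_03s0063g02670 (chromosome 3, 5902159 to 5903530, minus strand) had E-L 34 means of 31.1 ± 12.5, 22.3 ± 8.68 and 20.5 ± 9.80 CPM (SD, n = 3) and 0 counts at E-L 35. Replicate 3 was the low library in the first 3 of these 4 models and the high one in VIT_03s0063g02670.

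Some of the called models lay in runs of neighbours that were called in the same direction. The longest run of consecutive tested models that all rose held 27 models on chromosome 16, from 16238965 to 16711898. The next longest held 7 models, 4 runs held 5, 18 held 4, 65 held 3 and 278 held 2. With 14.5% of all tested models rising, some neighbours share a call by that share alone. The numbers of short runs were not compared with it, and nothing is read from them. Summed over the run of 27, the level was 6.35, 6.24 and 45.5 CPM in E-L 34 replicates 1 to 3 and 2649, 2608 and 2682 CPM in the E-L 35 libraries. Replicate 3 was above its partners and far below E-L 35. The log2 fold changes of the 27 models ran from 5.56 to 8.51 with a median of 7.13, and the largest edgeR adjusted p was 6.2e-07. The median was 1.97 over all models that rose and 0.0047 over all tested models. Models of a run had to be called as risen, which alone places their median above the latter. All 27 were also called without replicate 3, with fitted log2 fold changes of 5.18 to 13.96 and a median of 9.49; 6 of them then had 0 counts at E-L 34, where the fit depends on the prior count, and with these at the bound of 3 counts the median was 8.82. The summed level at E-L 35 was 137 times that at E-L 34, and 420.5 times without replicate 3. Of the 27 models, 23 overlap another model and 23 are on the minus strand; how reads of overlapping models were assigned is not known here, so the levels of single models are less certain than their sum.

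The 2 models of this run with the highest CPM were VIT_16s0100g00780 (chromosome 16, 16276493 to 16400096, plus strand) and VIT_16s0100g00900 (chromosome 16, 16323474 to 16505168, minus strand). The former had 0.481, 0.704 and 7.62 CPM in the E-L 34 libraries and 475, 480.1 and 492 CPM in the E-L 35 libraries, a log2 fold change of 7.36 ± 0.65 (SE; edgeR adjusted p = 1.1e-08), or 9.58 without replicate 3. The latter had 0.831, 0.892 and 4.52 CPM and 354, 359 and 382 CPM, a log2 fold change of 7.45 ± 0.51 (SE; edgeR adjusted p = 3.3e-10), or 8.64 without replicate 3. Both models rose with and without replicate 3, and their spans overlap 7 and 14 other models. The summed level of the run was 118 ± 1.93 CPM at E-L 33, while the E-L 38 libraries held 1077 ± 132 CPM (SD, n = 3), so the lowest of the 4 stages was E-L 34 and the highest E-L 35. In the wider stretch of 32 tested models from 16197749 to 16725593, 27 rose (84.4%) and 1 fell (2 without replicate 3). The shares over all tested models were 14.5% and 16.9%. This stretch contains the run and was chosen with earlier results of these data known, so it is no further test of the run.

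**Figure D4:**
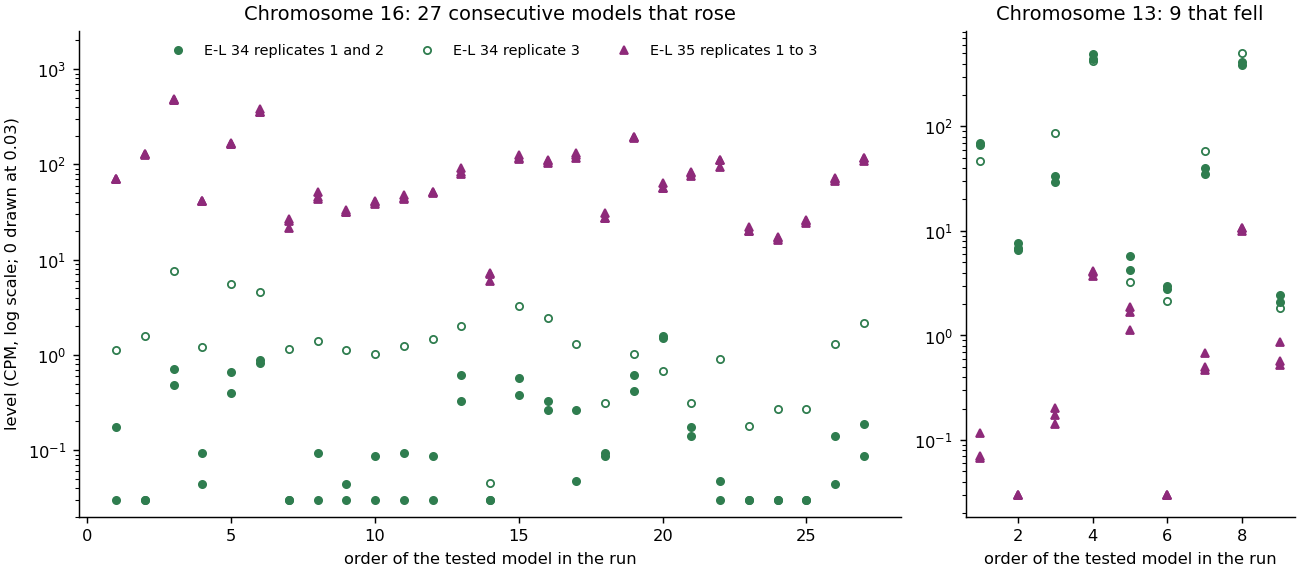
Level in CPM (vertical log axes, 0 drawn at 0.03) of each model of the longest run that rose, 27 models on chromosome 16, and of the longest run that fell, 9 models on chromosome 13, in chromosome order. In the chromosome 16 run the E-L 34 replicate 3 sum of 45.5 CPM stands above the 6.35 and 6.24 CPM of its partners, and the E-L 35 sums are 2608 to 2682 CPM.

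Of the shorter runs that rose, 1 also lay on chromosome 16, with 7 models from 578418 to 724558. Its summed level was 6.13, 5.02 and 16.98 CPM before the step and 642, 635 and 596 CPM after it. The ratio of the group means was 66.6, or 112 without replicate 3. The run was led by VIT_16s0039g01100 (chromosome 16, 598340 to 616099, minus strand), which rose from 4.10 ± 3.59 to 319 ± 15.7 CPM (SD, n = 3; log2 fold change 6.28 ± 0.63, SE, and 7.21 without replicate 3; edgeR adjusted p = 6.3e-08). Replicate 3 again lay above its partners. A run of 5 models on chromosome 5, from 11242527 to 11500774, went from 33.8, 37.6 and 31.9 CPM to 936, 943 and 919 CPM. Nearly all of that rise was in VIT_05s0051g00590 (chromosome 5, 11375113 to 11380850, minus strand), which had 19.3, 21.9 and 10.98 CPM in the E-L 34 libraries and 882, 890.1 and 863 CPM in the E-L 35 libraries. Runs of 5 on chromosome 19 (3780323 to 3846142) and chromosome 10 (14142560 to 14306520) rose from 103 ± 28.5 to 557 ± 8.12 CPM and from 1.69 ± 0.285 to 89.2 ± 2.94 CPM (SD, n = 3). Runs of the same length were ordered by summed CPM, a choice made after the values were seen.

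The longest run that fell held 9 models on chromosome 13, from 3999388 to 4079570, followed by 2 runs of 6, 3 of 5, 22 of 4, 61 of 3 and 334 of 2. Here too the numbers of short runs were not compared with the share that fell over all tested models, 16.9%. The chromosome 13 run summed to 980.1, 1063 and 1125 CPM before the step and 16.7, 18.3 and 17.1 CPM after it. At E-L 33 and E-L 38 it stood at 10.2 ± 0.527 and 20.02 ± 2.56 CPM (SD, n = 3), both far below the E-L 34 level. VIT_13s0019g02780 (chromosome 13, 4015394 to 4016080, minus strand) had 439, 493 and 419 CPM in the E-L 34 libraries and 3.68, 4.11 and 4.08 CPM in the E-L 35 libraries, a log2 fold change of -6.83 ± 0.40 (SE; edgeR adjusted p = 3.2e-11). VIT_13s0019g02850 (chromosome 13, 4048636 to 4049360, minus strand) had 391, 412 and 501 and 10.6, 10.6 and 9.91 CPM (log2 fold change -5.39 ± 0.54, SE; edgeR adjusted p = 6.0e-08). No library of one stage overlapped those of the other for either model. In the wider stretch of 18 tested models, from 3999388 to 4228520, 13 fell (72.2%) and 0 rose, against 16.9% and 14.5% over all tested models. This stretch contains the run and was likewise chosen with earlier results known, so it is no further test. Of its models, VIT_13s0019g03000 (chromosome 13, 4149244 to 4149995, plus strand) had the highest CPM at E-L 34, with 497, 511 and 758 CPM and then 7.49, 7.55 and 6.99 CPM at E-L 35.

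A run of 6 models on chromosome 4, from 1213585 to 1252699, held VIT_04s0008g01590. It summed to 732, 749 and 1385 CPM before the step and 50.1, 48.1 and 51.3 CPM after it, so replicate 3 lay farther from E-L 35 than its partners did. The other run of 6, on chromosome 16 from 6676142 to 6904333, summed to 481, 514 and 282 CPM at E-L 34, where replicate 3 was the low one, and to 48.3, 54.0 and 50.1 CPM at E-L 35. A run of 5 on chromosome 18, from 8907697 to 8950674, fell from 112 ± 16.5 to 2.28 ± 0.947 CPM (SD, n = 3). One of 5 on chromosome 5, from 24298325 to 24348881 and all on the plus strand, fell from 135 ± 23.8 to 53.6 ± 1.33 CPM. All models of these 5 runs that fell, and of the 5 that rose, were also called in the same direction without replicate 3.

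Some further stretches of chromosomes were chosen because they stood out between stages or cultivars elsewhere in these data. On chromosome 11, from 18903622 to 19019512, 2 of 13 tested models rose (15.4%) and 4 fell (30.8%), against 14.5% and 16.9% over all tested models; without replicate 3, 4 rose and 4 fell. The share that rose is near that of all models, and with 13 models nothing more is read from either. There VIT_11s0052g01250 (chromosome 11, 18981287 to 18982639, minus strand) had 815, 835 and 498 CPM in the E-L 34 libraries and 7.42, 7.01 and 6.64 CPM in the E-L 35 libraries (log2 fold change -6.67 ± 0.47, SE; edgeR adjusted p = 4.7e-10). On chromosome 18, from 4982073 to 5171397, 7 of 12 tested models fell (58.3%) and 0 rose. On chromosome 5, from 1938554 to 2163454, 1 of 9 fell (2 of 9 without replicate 3) and 0 rose, and on chromosome 12, from 19036148 to 19514771, 1 of 12 rose and 0 fell. With so few models, the last pair of counts is near the shares called over all tested models.

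Not all abundant models changed by 2-fold. Of the 30 models with the highest mean CPM at either stage, 12 rose, 9 fell and 9 were not called. Over all tested models 14.5% rose and 16.9% fell. The ranking took the higher of the 2 stage means, which favours models that changed, so the counts are not read as a trait of abundant models. VIT_18s0072g00380 (chromosome 18, 19583511 to 19584489, minus strand) had 8773, 9222 and 7791 CPM before the step and 14792, 15259 and 14397 CPM after it, a log2 fold change of 0.79 ± 0.12 (SE; edgeR adjusted p = 8.5e-06), below 2-fold. Per length it was the third most abundant model at both stages, with means of 12243 and 20381 FPKM. VIT_04s0008g05010 (chromosome 4, 4513055 to 4516401, plus strand) had 7765, 7472 and 5696 CPM and 12182, 11555 and 11691 CPM (log2 fold change 0.76 ± 0.14, SE). VIT_05s0020g01170 (chromosome 5, 2941335 to 2943313, plus strand) and VIT_02s0025g03390 (chromosome 2, 2890636 to 2893718, minus strand) were lower at E-L 35, with log2 fold changes of -0.79 ± 0.22 and -0.57 ± 0.17 (SE), also below 2-fold. In 7 of the 9 the adjusted p was below 0.05.

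Changed models had shorter median lengths than the rest. Models that rose had a median length of 1690 bp and a median span on the chromosome of 3714 bp, and models that fell had 1467 bp and 3184 bp, against 1782 bp and 5891 bp in models that were not called. Over all tested models the medians were 1710 bp and 5009 bp. Of 553 newly predicted models tested, 76 rose (13.7%) and 105 fell (19%), against 14.5% and 16.9% over all tested models. Without replicate 3 these shares were 19.2% and 18.7%, against 16.4% and 18.1%. They lie near those of all models, and nothing more is read from them. By chromosome, the share that rose ran from 12.3% on chromosome 7 to 21.2% on chromosome 16, which holds the run of 27, and the share that fell from 14.4% on chromosome 10 to 19.8% on chromosome 3. These are descriptions with no test.

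Leaving out E-L 34 replicate 3 turned no called model to the opposite direction. Of the models called with it, 5402 kept their call and direction (2448 that rose, 2954 that fell) and 374 lost it (222 and 152). A further 958 models tested in both fits were called only without it (575 that rose, 383 that fell). The most abundant models that changed sides lay near the 2-fold threshold. VIT_13s0019g04280 (chromosome 13, 5602037 to 5604892, minus strand) had 1239, 1257 and 802 CPM in the E-L 34 libraries and 2263, 2263 and 2190.2 CPM in the E-L 35 libraries; its log2 fold change was 1.03 ± 0.26 (SE; edgeR adjusted p = 0.00219) with replicate 3 and 0.76 without it. VIT_17s0000g03280 (chromosome 17, 3158455 to 3159122, plus strand) went from 1.15 to 0.84, VIT_01s0244g00150 (chromosome 1, 21717474 to 21724858, minus strand) from 1.02 to 0.91 and VIT_15s0021g01330 (chromosome 15, 11581021 to 11582652, plus strand) from 1.04 to 0.94. Those called only without it were VIT_08s0040g00890 (chromosome 8, 11881154 to 11892242, plus strand), VIT_05s0029g00020 (chromosome 5, 13951262 to 13954166, minus strand), VIT_06s0004g07770 (chromosome 6, 8561978 to 8564357, plus strand) and VIT_00s1665g00010 (on no assigned chromosome, 40069972 to 40072853 in the files, plus strand), with log2 fold changes of -0.97, -0.97, -0.98 and -0.99 with replicate 3 and -1.04, -1.04, -1.30 and -1.12 without it.

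**Figure D5:**
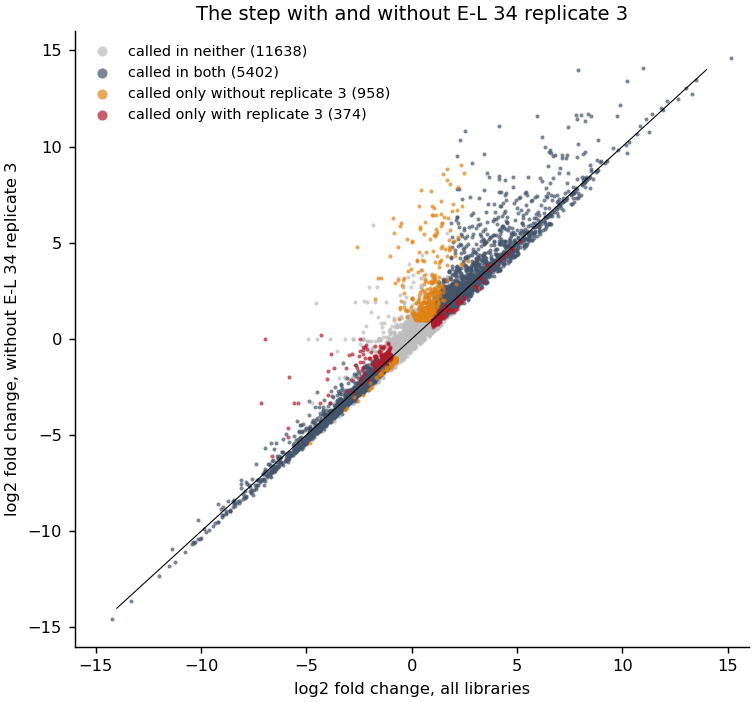
Log2 fold change from E-L 34 to E-L 35 without E-L 34 replicate 3 (vertical axis) against that with all libraries (horizontal axis), 1 point for each model tested in both fits; the line marks equal values. The 5402 models called in both keep their direction, and 575 of the 958 called only without replicate 3 rose.

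Whether the changed models also differed between green and ripe skin was asked in the 6 libraries of E-L 33 and E-L 38 of Cabernet Sauvignon, which share no library with the step. Between these stages 3268 models rose (17.8%) and 4269 fell (23.2%). Of the 2670 models that rose at the step, 1350 (50.6%) also rose over this span, which is 41.3% of that list, and 357 (13.4%) fell. Of the 3106 that fell at the step, 2037 (65.6%) also fell over this span, 47.7% of that list, and 167 (5.38%) rose. Of the 3023 models that rose without replicate 3 and were tested in both fits, 44.6% also rose and 16.8% fell over the span.

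In Danfeng-2 the same step called fewer models: 892 rose (4.85%) and 784 fell (4.27%), in a group where replicate 1 of E-L 35 correlated with its partners at r = 0.95 and 0.951. Without that library, E-L 34 replicate 3 of Cabernet Sauvignon and E-L 33 replicate 1 of Danfeng-2, 1186 rose (6.38%) and 1302 fell (7.01%) in Danfeng-2. Of the 2670 models that rose in Cabernet Sauvignon, 464 (17.4%) also rose in Danfeng-2, 52.0% of its list, and 50 fell. Of the 3106 that fell, 433 (13.9%) also fell, 55.2% of its list, and 91 rose. With the 3 libraries left out of the Danfeng-2 comparison, 503 of the former also rose and 117 fell, and 608 of the latter also fell and 157 rose. The difference of the 2 steps, tested as an interaction with edgeR, was called in 4407 models, with the higher fold change in Cabernet Sauvignon in 1950 (10.6%) and in Danfeng-2 in 2457 (13.4%). Among models that rose in Cabernet Sauvignon, 1490 (55.8%) rose more there than in Danfeng-2, and among those that fell, 1957 (63.0%) fell more. Both lists were chosen on the same Cabernet Sauvignon libraries that enter this difference, which favours a larger step there. The 2 shares are therefore no further test of a difference between the cultivars. The median log2 fold changes of the listed models were 1.97 and -1.94 in Cabernet Sauvignon, where they were chosen, and 0.37 and -0.30 in Danfeng-2. The summed level of the 27 models on chromosome 16 was 538 ± 7.10 CPM before and 1425 ± 760.3 CPM after the step in Danfeng-2 (SD, n = 3), where replicate 1 of E-L 35 is included.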

How the data were processed

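Skin RNA of Cabernet Sauvignon at E-L 34 and E-L 35 was sequenced in 3 libraries each. The deposited count of each gene model, a whole number, was the unit of every main test; some counts may be rounded-up estimates, which matters most for counts of 1 to 9. The authors' FPKM columns come without a description of how they were made. The Normalized column is a deposited signal, also undescribed, and entered no test. TopHat2 is the aligner named in the submitters' processing notes. Genome build, annotation, counting program and strand setting are not given in the sources used, so overlapping models on opposite strands cannot be told apart.

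Using edgeR 4.0.16 in R 4.3.3, filterByExpr kept 18375 of 27711 models, TMM scaled the libraries, and 1 quasi-likelihood fit took in all 24 libraries as 8 groups. The step, the span from E-L 33 to E-L 38, the step in Danfeng-2 and the difference of the steps were contrasts of that fit, with p-values adjusted over all tested models. CPM is the count relative to the TMM-adjusted library size. SE is approximate: the size of the fitted log2 fold change divided by the square root of the quasi-likelihood F statistic. The fit was tested on simulated counts with 200 changed models. It called 70% of the 3-fold and 92% of the 4-fold changes, and 1 unchanged model. The simulation had far fewer changed models than were called here and no library that stood apart, so it does not cover those features. Tools tried as alternatives were DESeq2 1.42.0 and limma 3.58.1 (log2 of FPKM plus 1 or 0.1), with other scalings, filters and thresholds, a replicate block and leaving out each library. Leaving out the 3 libraries that stood apart, and the 2 groups alone without E-L 34 replicate 3, were added after seeing the data. Floors and intervals cover counting error only.

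Models, regions and lists were chosen with earlier results of these data known. Models were named by a rule: the 8 highest and 8 lowest fold changes (20 CPM or more in the higher group, 10 counts or more in the lower), the 8 largest gains and losses in CPM, the 4 most abundant with 0 counts in one group, up to 4 abundant ones not called, the 2 with the highest CPM in each of the 5 longest runs and in the regions, and up to 4 that lost or gained the call without E-L 34 replicate 3. Where names were needed, 0 of 27711 identifiers matched, so lists by product name and cell type markers were not run.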

Additional observations from a re-analysis of the deposited data

Results flagged for a closer look

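By the edgeR interaction test the colouring step was unlike in the cultivars in 4407 of 18375 tested models, and in 67 of the 85 named models. Over all tested models, 10.6% had the higher fold change in Cabernet Sauvignon and 13.4% in Danfeng-2. Most named models were chosen for large changes in the same Cabernet Sauvignon libraries, which favours a difference, so their count is no further test. Without the 3 libraries that stood apart, 5747 models differed. In 3 named models the step was called in opposite directions in the cultivars, and in 6 without those libraries. VIT_04s0008g01590 fell in Cabernet Sauvignon and went from 0.812 ± 0.226 to 9.71 ± 3.16 CPM (SD, n = 3) in Danfeng-2; the difference of the steps was -12.74 on the log2 scale (edgeR adjusted p = 5.0e-08), and -11.82 without the 3 libraries. VIT_04s0008g01490 also fell in Cabernet Sauvignon and went from 11.9 ± 1.76 to 34.7 ± 19.6 CPM in Danfeng-2, a difference of -6.35 (edgeR adjusted p = 6.3e-07), and -6.47 without those libraries. VIT_13s0019g04280 rose in Cabernet Sauvignon and went from 334 ± 15.2 to 167 ± 80.2 CPM in Danfeng-2, a difference of 2.03 (edgeR adjusted p = 2.1e-04), and 1.42 without those libraries; without them neither its rise in Cabernet Sauvignon nor its fall in Danfeng-2 was called. The other 2 were in opposite directions in both fits. Opposite directions were called only without the 3 libraries in VIT_06s0004g02560, VIT_15s0021g02700, VIT_02s0154g00320 and VIT_13s0019g03000. In the first pair the log2 fold changes were 13.39 and 12.73 in Cabernet Sauvignon and -2.03 and -1.76 in Danfeng-2. With all libraries, VIT_06s0004g02560 went from 9.01 ± 0.621 to 4.60 ± 4.14 CPM (SD, n = 3) in Danfeng-2. VIT_15s0021g02700 went from 0.962 ± 0.249 to 0.423 ± 0.263 CPM there. These levels were low, and ripe Danfeng-2 skin (E-L 38) held means of 9643 and 38.3 CPM. The second pair had -14.58 and -6.18 in Cabernet Sauvignon and 1.69 and 1.30 in Danfeng-2. Its Danfeng-2 means went from 39.8 ± 3.26 to 88.7 ± 70.5 CPM and from 25.6 ± 2.51 to 56.7 ± 12.1 CPM.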

How the results depend on the processing

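Without a minimum fold, at an adjusted p below 0.05 by edgeR, 5608 models rose, 5394 fell and 7621 differed between the cultivars; at an adjusted p below 0.01 and at least 4-fold the counts were 1227, 1398 and 1726. Under every other alternative run the counts stayed within 1.5 times of those reported, from 1934 with limma on log2(FPKM + 1) to 3257 without the 3 libraries that stood apart for models that rose, and from 2499 to 3519 with the same alternatives for models that fell. With each library left out in turn, 2456 to 3067 rose, 2999 to 3370 fell and 4147 to 4847 differed. DESeq2 gave 2492, 3183 and 4560. With a replicate block, 2699 rose, 3067 fell and 4326 differed. The labels name no pairing of the libraries. Deviations of same-numbered libraries from their group means correlated at -0.015, 0.027 and 0.0037. The E-L 35 libraries differed little and replicate 3 stood apart at E-L 34, so these values cannot decide if same-numbered libraries are linked. Of the 85 named models 74 were called, and 69 of these kept their call and direction in every one of the 17 alternatives of the fit that gave an adjusted p. For 8 of the named models DESeq2 gave no adjusted p. The 5 that lost the call in some alternative were the 4 near 2-fold that lost it without E-L 34 replicate 3, and VIT_12s0034g02560 with limma. No named model reversed. At the stricter threshold of an adjusted p below 0.01 and at least 4-fold, 62 of the 74 were called. Models under about 10 counts in a group are limited by depth, since their fold rests on single reads.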
